A study of Mus musculus with 10 samples.

Results

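The transcription factor genes Sall1 and Sall4, the RNA-binding protein genes Lin28a and Lin28b, and Trim71 were followed through the open-chromatin peaks around them during the reprogramming of mouse fibroblasts. The 5 genes were chosen by name, from 21887 protein-coding genes of the RefSeq annotation. A peak was counted for a gene when it overlapped, by at least 1 bp, the stretch from 30 kb before to 30 kb after it. Peaks of the 10 libraries that overlapped were merged into regions. The 5 stretches held 84 of the 208851 merged regions of the genome.

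Accessibility was measured with ATAC-seq, which reads where a transposase can insert adapters into DNA, in 2 libraries at each of 5 stages. MEF, DAY3, DAY6 and DAY9 cells all carried the genotype OKSM Col1a1/M2rtTA ROSA26 on a C57BL/6 x 129 background, that is an inducible cassette of 4 reprogramming factors and its doxycycline-dependent activator. MEF, unsorted embryonic fibroblasts, were kept in MEF medium with no doxycycline. DAY3, DAY6 and DAY9 cells were in ESC medium with 1 ug/ml doxycycline and 50 ug/ml ascorbic acid. DAY3 cells were unsorted, and DAY6 and DAY9 cells were sorted for the surface marker SSEA1. ESC were the embryonic stem cell line V6.5, of the same strain background, unsorted, in ESC medium and grown on irradiated feeder cells. Sorting coincides with DAY6 and DAY9, and the lack of the cassette with ESC, so neither can be told apart from stage. The labels give all 10 libraries 1 batch name.

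SALL1 and SALL4 are zinc finger proteins that bind the NuRD co-repressor complex, and SALL4 belongs to the factors that hold embryonic stem cells pluripotent. LIN28A and LIN28B bind the precursors of let-7 microRNAs and block their maturation, LIN28A by recruiting the terminal uridylyl transferases TUT4 and TUT7, after which the exonuclease DIS3L2 degrades the precursor. TRIM71, the vertebrate LIN-41, is a TRIM protein with an NHL domain that binds RNA and represses mRNAs. The transcripts of Lin28a, Lin28b and Trim71 are themselves let-7 targets, and Lin28 has been used as a reprogramming factor.

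The start sites of 4 of the 5 genes had an entry in the RefSeq promoter table (build GRCm38.p6, the same assembly as mm10), and the 250 bases before 5 of their starts are shown to place them beside the start-site peaks described next. The windows of the inner Sall1 starts lie wholly inside a peak in all 10 libraries. Peaks overlapped the Lin28a window in 6 libraries and the Trim71 window in 7. At Lin28b the peaks lie mostly inside the gene, and only that of DAY9 replicate 2 reached the window. The sequences run 5′ to 3′ on the minus strand, and capitals mark CACCC, the core of KLF sites, on either strand, so that GGGTG in capitals is the same motif read on the other strand.
Sall1 (start 89043512), chr8:89043513-89043762: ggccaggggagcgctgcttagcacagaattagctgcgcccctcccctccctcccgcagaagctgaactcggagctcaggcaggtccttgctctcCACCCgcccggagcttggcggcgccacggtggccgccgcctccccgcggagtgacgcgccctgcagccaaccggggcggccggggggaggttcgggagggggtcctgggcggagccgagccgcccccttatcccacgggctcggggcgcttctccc
Sall1 (start 89042862), chr8:89042863-89043112: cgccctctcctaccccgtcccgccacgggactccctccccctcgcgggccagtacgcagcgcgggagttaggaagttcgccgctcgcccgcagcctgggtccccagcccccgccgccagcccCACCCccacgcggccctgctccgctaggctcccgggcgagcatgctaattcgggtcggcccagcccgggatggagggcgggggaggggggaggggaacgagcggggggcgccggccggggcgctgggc
Lin28a (start 134018816), chr4:134018817-134019066: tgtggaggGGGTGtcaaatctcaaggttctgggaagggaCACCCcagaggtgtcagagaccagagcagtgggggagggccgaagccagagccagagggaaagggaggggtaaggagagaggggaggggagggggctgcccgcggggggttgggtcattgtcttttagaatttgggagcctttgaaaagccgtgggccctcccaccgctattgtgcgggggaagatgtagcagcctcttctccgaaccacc
Lin28b (start 45470201), chr10:45470202-45470451: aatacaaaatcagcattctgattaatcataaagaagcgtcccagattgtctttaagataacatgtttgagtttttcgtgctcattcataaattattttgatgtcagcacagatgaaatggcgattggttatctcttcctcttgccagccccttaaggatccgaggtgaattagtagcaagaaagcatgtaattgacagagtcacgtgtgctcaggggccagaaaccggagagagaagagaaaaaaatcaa
Trim71 (start 114564369), chr9:114564370-114564619: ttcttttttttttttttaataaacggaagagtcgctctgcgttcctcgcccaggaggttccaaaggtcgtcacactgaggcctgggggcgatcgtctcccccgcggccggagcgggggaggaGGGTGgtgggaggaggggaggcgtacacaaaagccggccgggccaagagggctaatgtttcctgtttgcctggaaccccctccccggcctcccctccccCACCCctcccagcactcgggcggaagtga
Sall1 has a further, outermost start at 89044162, whose window only the peak of ESC replicate 2 reached. G and C made up 56.4% of the bases before its outermost start, and 74.4% and 78.4% before the inner ones, against a median of 52.4% over the 32851 promoters of the table. Lin28a had 61.2% and Trim71 62.8%. Lin28b stood at the other side of the median with 39.2%, and only 10.3% of all promoters had less. CpG dinucleotides numbered 13 before the outermost Sall1 start and 30 before the innermost, 7 at Lin28a, 17 at Trim71 and 6 at Lin28b, where the median promoter has 6. CACCC occurred 3 times before the outermost Sall1 start, once before each inner one, at 2 places each in Lin28a and Trim71 and nowhere in the Lin28b window; 52% of all promoters hold it. GGGCGG, the site of SP factors, was found before the inner Sall1 starts and at Trim71, and 32.7% of all promoters hold it. TATAAA (12.4% of all promoters), the POU octamer ATTTGCAT (1.6%) and the AP-1 motif TGANTCA (6.75%), each searched on both strands, had no match in any of these 6 windows. A match is a run of letters, not a measured binding site.

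The lists held 45497 to 88980 peaks, fewest at DAY3 and most at ESC. The most common background value recovered from the peaks of each list ranged from 2.327 to 8.322 reads between libraries. The labels could be set against marker genes, with peaks at the start site or, for Thy1, Fap, Dppa4, Prdm14, Gata4, Gata6, Sox17 and Tmem119, which have no start-site entry, at either gene end. All 7 fibroblast markers had such a peak in both MEF libraries, and 3, 2, 1 and 2 of them in both libraries of DAY3, DAY6, DAY9 and ESC. Of the 7 pluripotency markers 1 had such a peak at MEF and at DAY3, 4 at DAY6, 5 at DAY9 and 7 at ESC. Of the markers of other cells, 1 of 3 endoderm genes had one from MEF to DAY9 and 2 at ESC, 0 of 3 neural genes at MEF and DAY3, 2 at DAY6 and DAY9 and 3 at ESC, and 1 of 3 microglial genes up to DAY6 and 0 after. The microglial genes Cx3cr1 and P2ry12 had no such peak in any library, nor did the endoderm gene Gata4. In bulk samples a site open in few cells and a site weakly open in all cells cannot be told apart. The part of other cell types in the results that follow was not tested.

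The 5 genes first had a start-site peak at different stages. A start site counted as open in a library when a peak lay within 1 kb of it, and in a stage when both libraries had one. The library pairs of DAY3 and DAY9 differed by only 1.33 and 1.42 times counting noise, against 3.61 to 8.11 at the other stages. A peak in both libraries may therefore be easier to meet at DAY3 and DAY9, while the DAY3 lists are also the shortest. Neither effect was tested, and first stages were not corrected for them. Sall1 was open at all 5 stages, Trim71 from DAY3, the gene end of Sall4 from DAY6, and Lin28a and Lin28b from DAY9. Peaks in both ESC and no MEF library were found for 2 of the 5 genes, Sall4 and Lin28a. The share of all genes with the same pattern was 4.36% of the 17492 with a start-site entry and 5.2% of all 21887 when both gene ends are used. With 2 libraries against 2 an exact test cannot go below p = 0.33, so these patterns carry no test.

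**Figure D1:**
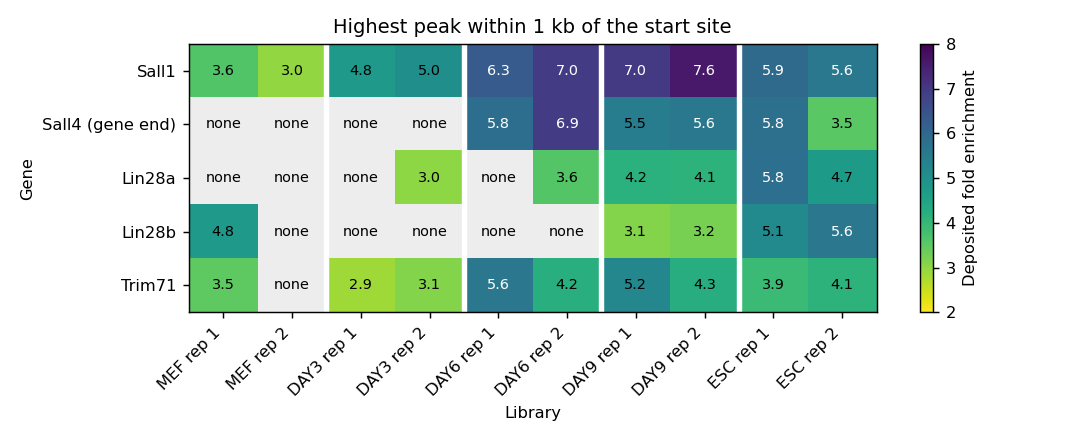
The deposited fold enrichment of the highest peak within 1 kb of the start site (for Sall4, of a gene end) in each of the 10 libraries; grey cells have no peak. Sall1 has a peak in all 10 libraries, Sall4 in the 6 libraries from DAY6 on, and Lin28a and Lin28b in both libraries of a stage only at DAY9 and ESC.

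Sall1 lies at chr8:89027242-89044162. A region of 1907 bp, chr8:89042393-89044299, spanned its 3 starts after merging. The peaks of every library covered the window before each inner start, and that of ESC replicate 2 alone reached the outermost start, 89044162. The fold enrichment of its highest peak there, a ratio over local background that the authors' peak caller gave, was 3.64 and 2.97 in the MEF libraries, 4.76 and 5.02 at DAY3, 6.28 and 6.96 at DAY6, 6.98 and 7.58 at DAY9, and 5.93 and 5.6 at ESC. The MEF values were the lowest and the DAY9 values the highest. Such folds describe peaks within a list and were not tested between stages, because the background differs between libraries. Short peaks in a single library flanked it on both sides, chr8:89041867-89042145 in DAY3 replicate 1 (fold 2.58) and chr8:89044871-89045139 in ESC replicate 1 (2.29).

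Sall4, at chr2:168748332-168767201, has no start-site entry in the table, so both of its ends were searched. No library had a peak within 1 kb of the lower end. At the upper end the region chr2:168766493-168767523 had no peak in the 4 MEF and DAY3 libraries. Its highest folds were 5.83 and 6.93 at DAY6, 5.46 and 5.59 at DAY9, and 5.79 and 3.54 at ESC. The 6 libraries from DAY6 on thus all had the peak, and the 4 earlier ones all lacked it. A non-coding gene, Gm14261 (chr2:168766143-168768110), overlaps this end, and a peak there cannot be assigned to 1 of the 2 genes.

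Lin28a lies at chr4:134003330-134019196. Its start-site region chr4:134018238-134019765 had no peak in either MEF library, a peak in 1 of 2 libraries at DAY3 (fold 3.03, replicate 2) and at DAY6 (3.61, replicate 2), and peaks in both at DAY9 (4.17 and 4.12) and ESC (5.8 and 4.72). The single peaks of DAY3 and DAY6 were 238 and 496 bp wide, the highest peaks of DAY9 were 888 and 835 bp wide, and those of ESC, 539 and 602 bp, were close to that of DAY6. DAY9 was therefore the first stage with both libraries, with 1 library open 2 stages earlier. A second short region within the gene, chr4:134017554-134017882, had a peak in ESC replicate 2 alone (2.9).

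Lin28b lies at chr10:45376617-45486314, with its annotated start at 45470201 inside that span. Within 1 kb of the start MEF replicate 1 had a peak of fold 4.76, MEF replicate 2 and all DAY3 and DAY6 libraries had none, DAY9 had 3.12 and 3.22, and ESC 5.13 and 5.63. The peak of 1 MEF library keeps Lin28b out of the count of gained start sites. The merged region, chr10:45468569-45470249, also held a peak of DAY6 replicate 2 (3.61) that lay more than 1 kb from the start. At the far end of the annotated span, 15332 bp before that start, the region chr10:45485533-45487076 had a peak in all 10 libraries, with folds of 5.44 and 2.79 at MEF, 4.12 and 4.15 at DAY3, 5.53 and 8.71 at DAY6, 8.48 and 6.51 at DAY9, and 12.2 and 8.7 at ESC. With the gene ends in place of the listed start, Lin28b was open at 5 stages and not at 2.

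Trim71 lies at chr9:114511268-114564369. The start-site region chr9:114562664-114565261, 2598 bp wide, had peaks in 9 libraries and none in MEF replicate 2. The highest folds were 3.48 in MEF replicate 1, 2.85 and 3.12 at DAY3, 5.63 and 4.24 at DAY6, 5.22 and 4.26 at DAY9, and 3.91 and 4.11 at ESC. The highest peak was narrow in MEF replicate 1 (337 bp) and at DAY3 (482 and 356 bp) and wide later, 1647 and 1189 bp at DAY6 and 2126 and 1976 bp at DAY9. The DAY6 to ESC widths, 1009 bp at the least, did not overlap those of MEF and DAY3. Without MEF replicate 1, Lin28b and Trim71 would join the gained start sites, which would then be 4 of 5. Without MEF replicate 2 both would instead count as open at MEF, Trim71 at all 5 stages and Lin28b at 3.

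The first stage of a start-site peak moved with the rule. In lists of equal length (the highest-scoring peaks of each, as many as the shortest holds) Lin28a and Lin28b were open at ESC alone, Lin28b counted as gained, and Sall1 was open from DAY3. Trim71 was then open at DAY3, DAY6 and DAY9 and no longer at ESC. Within 2.5 kb of the start, Lin28a was open from DAY3. Counting only peaks whose score reached the pooled median of the 10 lists, Lin28a was open at ESC alone, Trim71 at DAY9 alone and Lin28b at no stage, while Sall1 was open from DAY3 and Sall4 at DAY6 and DAY9. Under that rule Sall4 lost its ESC call and left the gained genes and Sall1 joined them, so that the count was again 2. The Sall4 end was the one of the 5 whose first stage was the same under all 6 other rules tried (within 500 bp, within 2.5 kb, equal lists, the score limit, 1 library enough, gene ends for every gene) and with any 1 library left out.

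Numbers of peaks in the whole stretch around each gene were set against the order of the stages. The trend score is the share of pairs of samples from different stages in which the later sample has more peaks, minus the share in which it has fewer, and its p was computed over all exact permutations of the samples (Jonckheere-Terpstra, two-sided). Because the DAY3 pair and the DAY9 pair came close to sampling noise, each was averaged and entered as 1 sample, leaving 8. Across 21063 genes with a peak no gene passed an adjusted p of 0.05 (Benjamini-Hochberg; 0% called up, lowest adjusted p 0.0801), while 19.2% were upward at an unadjusted p under 0.05, 4044 genes against 414 downward. Of the 5 genes 4 were upward at that unadjusted threshold, and none passed the adjustment. In lists of equal length 2 of the 5 were, Sall1 (exact p = 0.00357) and Trim71 (0.00198), against 8.45% of all genes, 1724 upward and 1651 downward. Both ESC libraries had more peaks than both MEF libraries for 4 of the 5, all but Lin28b, and for 36.9% of all genes. With the 10 libraries as separate samples Sall1, Sall4 and Trim71 passed, 3 of 5, where 7.63% of all genes did, and by covered base pairs Sall1 alone passed, where 3.81% did. The lists also lengthen from DAY3 to ESC, and the median score of all genes was 0.28.

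**Figure D2:**
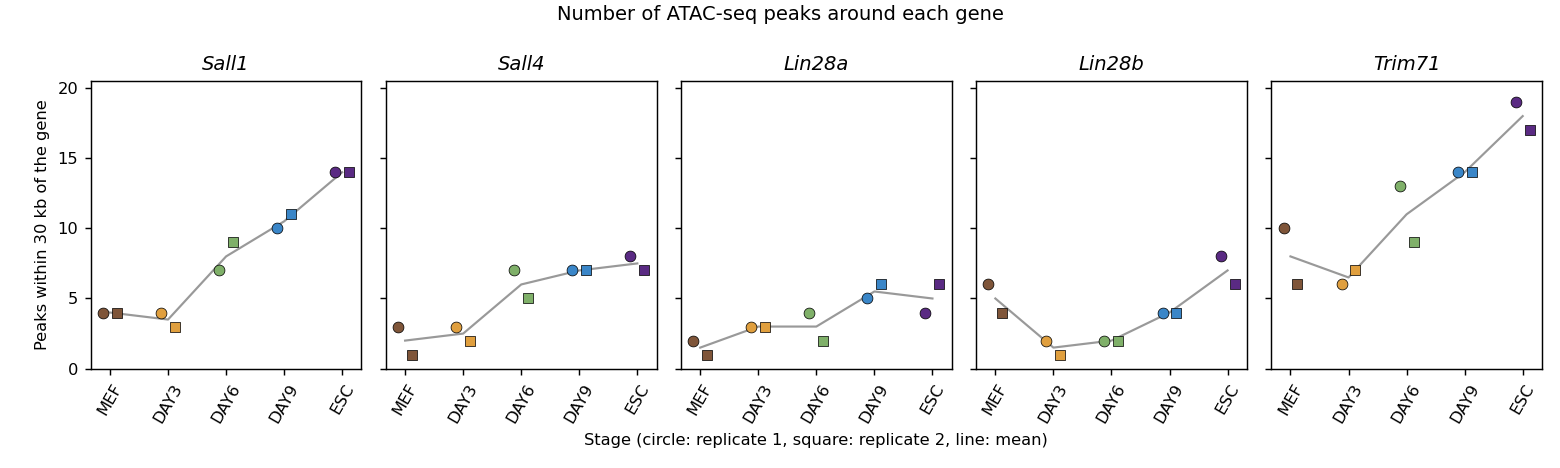
Number of peaks from 30 kb before to 30 kb after each gene (vertical axis) at each stage (horizontal axis), with a circle for replicate 1, a square for replicate 2 and a line through the means. Sall1 goes from 4 peaks in each MEF library to 14 in each ESC library, and Lin28b has its fewest peaks at DAY3 and DAY6 in these full lists.

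Sall1 had 4 peaks in each MEF library, 4 and 3 at DAY3, 7 and 9 at DAY6, 10 and 11 at DAY9, and 14 in each ESC library. MEF and DAY3 overlapped and the later stages followed each other without overlap. The trend score was 0.84 (exact p = 0.00437, adjusted p = 0.092), and 95.1% of genes had a lower score. ESC exceeded MEF by 10 peaks on average, a larger difference than in 99% of genes.

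Trim71, with the longer window of 113102 bp, had 10 and 6 peaks at MEF, 6 and 7 at DAY3, 13 and 9 at DAY6, 14 in each DAY9 library, and 19 and 17 at ESC. The 2 ESC libraries lay above all others. Its score was also 0.84 (exact p = 0.00675, adjusted p = 0.113), with the same mean difference of 10 peaks between ESC and MEF.

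Around Sall4 there were 3 and 1 peaks at MEF, 3 and 2 at DAY3, 7 and 5 at DAY6, 7 in each DAY9 library, and 8 and 7 at ESC. The break lay between DAY3 and DAY6, and DAY6 to ESC overlapped. The score was 0.8 (exact p = 0.00714, adjusted p = 0.113), and ESC exceeded MEF by 5.5 peaks.

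Lin28a, in the shortest window of the 5, had 2 and 1 peaks at MEF, 3 in each DAY3 library, 4 and 2 at DAY6, 5 and 6 at DAY9, and 4 and 6 at ESC. DAY9 and ESC overlapped. The score was 0.76 (exact p = 0.0143, adjusted p = 0.126) for a mean difference of 3.5 peaks.

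In the full lists Lin28b differed in shape from the other 4 genes. Its peaks numbered 6 and 4 at MEF, 2 and 1 at DAY3 and 2 in each DAY6 library. At DAY9 each library had 4, and the ESC libraries had 8 and 6. The DAY3 and DAY6 libraries lay below those of MEF in these full lists, which are shortest at DAY3, and MEF overlapped ESC. The score was 0.36 (exact p = 0.275, adjusted p = 0.526), and 53.6% of genes had a lower one. The shapes of 2 genes were not tested against each other.

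With every list cut to its 45497 highest-scoring peaks, the length of the shortest list, the median score of all genes was 0. The scores were then 0.92 for Trim71, 0.84 for Sall1, 0.52 for Lin28b, 0.48 for Sall4 and 0.36 for Lin28a. Sall1 then had 1 and 4 peaks at MEF and 8 and 7 at ESC, and Trim71 4 and 3 at MEF and 11 and 12 at ESC. Lin28a had 1 peak in each MEF library, 3 in each DAY3 library, 3 and 1 at DAY6, 2 in each DAY9 library and 2 and 3 at ESC in these shortened lists. Sall4 had 1 and 0 at MEF, 3 and 2 at DAY3, 6 and 5 at DAY6, 5 in each DAY9 library and 5 and 4 at ESC. Lin28b had 2 and 1 peaks at MEF and again at DAY3, 1 in each DAY6 library, 3 and 2 at DAY9 and 3 and 4 at ESC, so that DAY3 no longer lay below MEF. The Lin28b score was then no longer the lowest of the 5.

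Away from the start sites the stretches held 76 distal regions, 20 around Sall1, 12 around Sall4, 8 around Lin28a, 11 around Lin28b and 25 around Trim71. Both libraries had a peak in 12 of them at MEF, 10 at DAY3, 18 at DAY6, 29 at DAY9 and 32 at ESC. No such share was computed over all regions, so these counts carry no background. Of the 84 regions, start sites included, 22 and 16 had a peak in the MEF libraries, 17 and 16 at DAY3 and 49 and 48 at ESC. Of all 208851 merged regions, 72891 and 62544 had one at MEF, 44264 and 44067 at DAY3 and 84067 and 87136 at ESC. As at the start sites, a peak in both libraries may be easier to meet at DAY3 and DAY9, whose pairs came close to counting noise. The DAY3 lists are also the shortest, and neither effect was tested. Of the 76 regions, 20 (26.3%) were gained, with a peak in both ESC libraries and no MEF library, against 15.9% of all merged regions. In lists of equal length 12 were gained, or 15.8%, against 7.97% of all. Lost regions, with the reverse pattern, were 2 (2.63%), against 11.1% of all. Peaks in all 10 libraries were found in 7 (9.21%), against 7.35% of all. A further 28 regions had a peak in a single library, a count with no share over all regions computed. The shares of all merged regions include start-site regions, which the 76 leave out. Regions around 1 gene are not independent of each other, and genes known for pluripotency were chosen, so these shares are descriptions.

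**Figure D3:**
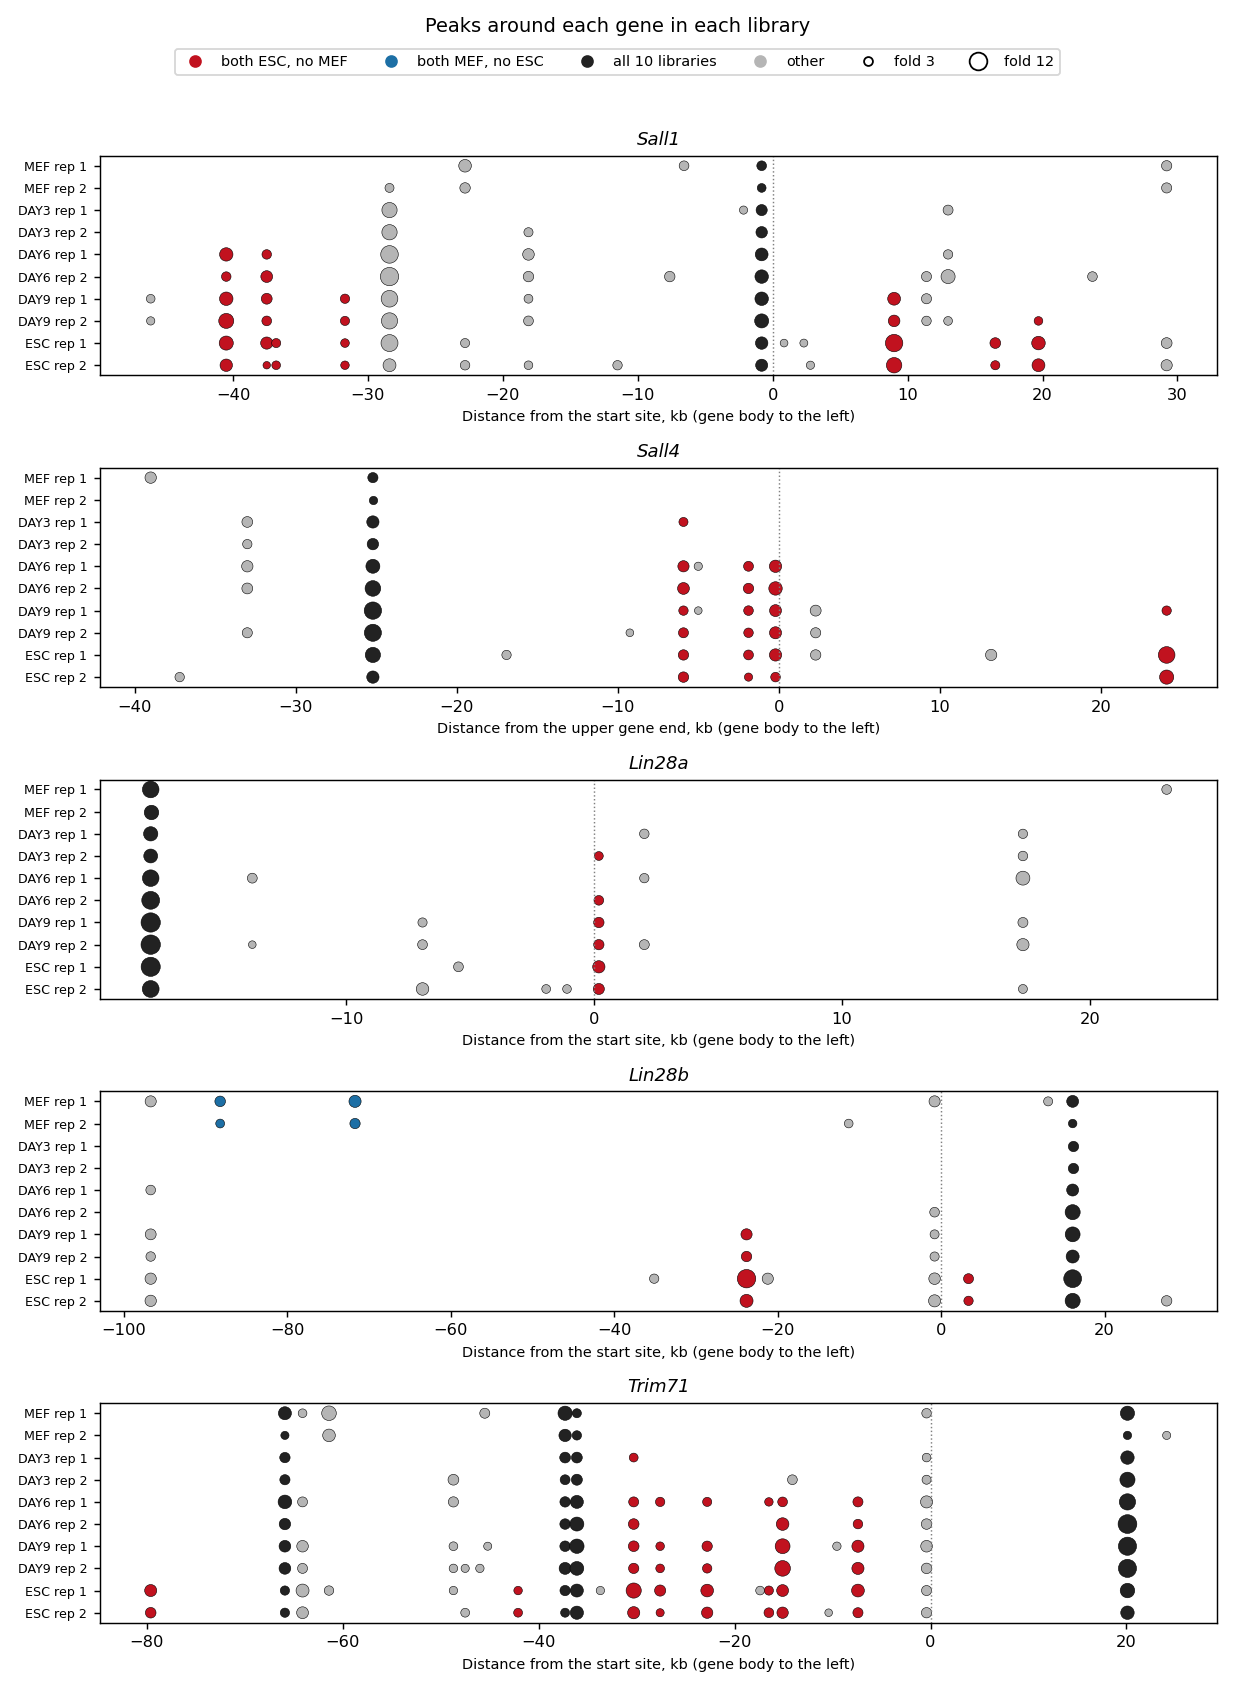
Each point is a peak region in 1 library (rows), placed by its distance in kb from the start site (for Sall4, from the upper gene end), with the gene body to the left and the point's area in proportion to the deposited fold. Red regions have peaks in both ESC and no MEF library, blue the reverse, black in all 10 libraries; 7 red distal regions lie around Sall1 and 8 around Trim71, and both blue ones lie within Lin28b.

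The 20 gained regions were 7 around Sall1, 3 around Sall4, 0 around Lin28a, 2 around Lin28b and 8 around Trim71. None had a peak in both libraries at DAY3. The first stage with both was DAY6 for 7 (35%), DAY9 for 5 (25%) and ESC for 8 (40%). Over all 33275 gained regions of the genome these shares were 8.69% for DAY3, 14.7% for DAY6, 15.7% for DAY9 and 60.9% for ESC. Those 33275 include start-site regions, unlike the 20. Within genes 10 of 37 regions were gained, not counting 3 within Lin28b but before its listed start, of which 1 was gained. Downstream 5 of 14 were gained and upstream 3 of 15. Around Sall4, which has no listed start, 0 of 4 beyond the lower end and 1 of 3 beyond the upper end were gained.

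**Figure D4:**
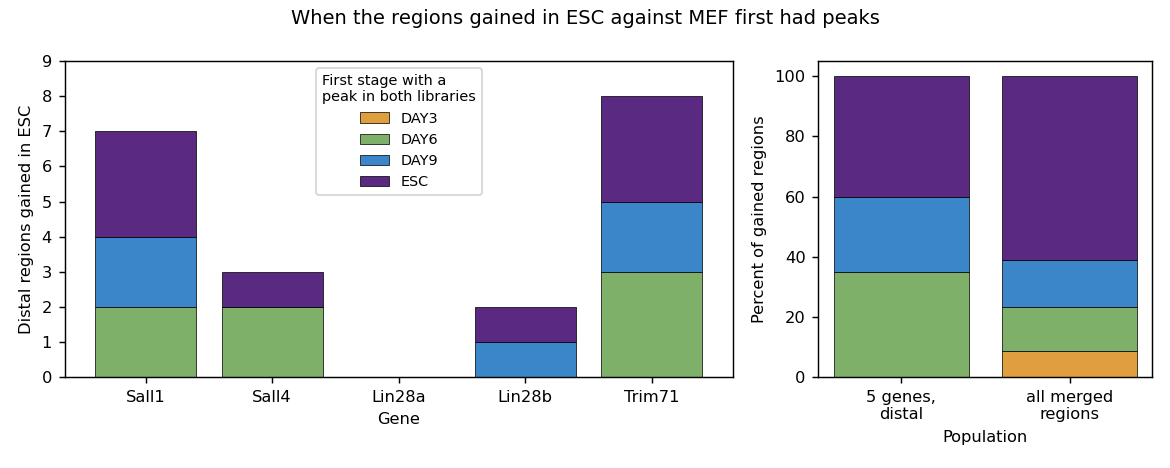
Left, the number of distal regions gained in ESC against MEF for each gene (vertical axis), split by the first stage with a peak in both libraries; right, the same split in percent for the 20 regions of the 5 genes and for all 33275 gained regions. DAY3 is absent around the 5 genes and DAY6 takes 35% of their gained regions.

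The distal Sall1 region with the highest fold was open early. At chr8:89015366-89016091, 26771 bp downstream of the nearest start, MEF replicate 1 had no peak and MEF replicate 2 a low one (fold 3.11). DAY3 had 8.86 and 8.93, DAY6 11.8 and 12.9, DAY9 10.7 and 10.1, and ESC 11 and 6.39. Both libraries were open from DAY3 on, the earliest stage of any distal Sall1 region that was not open in both MEF libraries. Further downstream, chr8:89003249-89004116 was open from DAY6, with 6.86 and 3.49 at DAY6, 6.95 and 8.66 at DAY9, and 7.61 and 5.91 at ESC. Upstream, chr8:89052752-89053564 (8590 bp before the outermost start) opened at DAY9 with 6.32 and 5.19 and had 11.7 and 9.14 at ESC. The region chr8:89056865-89057421, 12703 bp upstream, was transient: DAY3 replicate 1 had 3.81, DAY6 3.37 and 7.59 and DAY9 replicate 2 2.93, and no MEF or ESC library had a peak. A pair of regions picked after their values were seen, 21262 bp downstream and 28776 bp upstream, had peaks in both MEF and both ESC libraries and in no library of DAY3, DAY6 or DAY9. The downstream one had folds of 6.12 and 4.18 at MEF and 3.19 and 3.49 at ESC, the upstream one 4.08 and 3.97 at MEF and 4.47 and 4.82 at ESC. ESC were unsorted and grown on feeder cells, and the part of feeder cells in these ESC peaks was not tested.

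Within Sall4, chr2:168761062-168761520, 5681 bp from the upper end, had 3.17 in DAY3 replicate 1, 4.85 and 5.38 at DAY6, 3.39 and 3.86 at DAY9, and 4.14 and 4.2 at ESC. A further gained region, picked after its values were seen, lay 1508 bp inside the upper end and had peaks in the same 6 libraries as the end itself. The stage of first opening was thus DAY6 for the upper end and for both gained regions inside the gene. Beyond the upper end by 23592 bp, chr2:168790793-168791807 was open at ESC (10.6 and 7.7) and in DAY9 replicate 1 alone before that (3.36). The region chr2:168741078-168742854 was open in all 10 libraries, with folds from 2.68 to 11.5, and lies at an end of the neighbouring gene Atp9a. The 4th highest fold came from chr2:168728017-168728484, inside Atp9a, with a single peak in MEF replicate 1 (4.98).

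Lin28a had no gained distal region. The most enriched region of its stretch, chr4:134000480-134001308, was open in all 10 libraries (7.38 to 14.4) and lies at an end of the neighbouring gene Dhdds, an enzyme of dolichol synthesis. Upstream by 17091 bp, chr4:134035907-134036376 had 3.33 and 3.51 at DAY3, 7.41 in DAY6 replicate 1, 3.84 and 5.73 at DAY9 and 3.1 in ESC replicate 2. It was open in both libraries at DAY3, but in 1 of 2 at DAY6 and at ESC. Within the gene, chr4:134011527-134012238 had 3.24 and 3.7 at DAY9 and 6.04 in ESC replicate 2 alone. Just upstream, chr4:134020610-134021056 had peaks in DAY3 replicate 1, DAY6 replicate 1 and DAY9 replicate 2 (3.37 to 3.82).

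Lin28b held both lost regions. In chr10:45398211-45398764, within the gene, the MEF libraries had 5.66 and 4.08 and no other library had a peak. The other, 87961 bp from the start and also within the gene, had 4.3 and 3 at MEF. Of its gained regions, chr10:45446096-45446646, within the gene, had 4.8 and 4.18 at DAY9 and 13 and 6.5 at ESC, and none before. The other, picked after its values were seen, lay 2914 bp before the start and was open at ESC alone (3.86 and 3.36). At the lower side, chr10:45373204-45373746 lies at an end of the neighbouring gene Bves and was open in both libraries at DAY9 and ESC and in 1 library each of MEF and DAY6 (3.46 to 4.96).

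All but 1 of the 8 gained regions of Trim71 lay inside the gene. At chr9:114548987-114549650, 14719 bp into the gene, folds were 3.65 and 6.1 at DAY6, 8.46 and 9.37 at DAY9, and 5.42 and 4.97 at ESC. At chr9:114533780-114534269 they were 3.01 in DAY3 replicate 1, 3.86 and 4.37 at DAY6, 4.38 and 4.08 at DAY9, and 8.81 and 5.71 at ESC. Both regions opened at DAY6 and stayed open in every later library. A pair of regions deeper in the gene, chr9:114526438-114527765 and chr9:114527869-114528712, was open in all 10 libraries. The first had 7.76 and 5.88 at MEF, 4.47 and 3.76 at DAY3, 4.16 and 4.26 at DAY6, 4.27 and 5.49 at DAY9, and 4.09 and 3.13 at ESC. The second had 3.16 and 3.36 at MEF, 4.51 and 4.67 at DAY3, 6.5 and 7.5 at DAY6, 7.95 and 7.3 at DAY9, and 6.47 and 6.68 at ESC. The MEF libraries were thus the highest in the first region and the lowest in the second, although they lie next to each other. Outside the gene, chr9:114498194-114498793, inside the chemokine receptor gene Ccr4, was open in all 10 libraries (2.57 to 7.12). So was chr9:114583791-114585227, at an end of Cnot10, a subunit of the CCR4-NOT deadenylase (2.67 to 13.5). The region chr9:114502635-114503239, inside Ccr4, had 8.17 and 6.11 at MEF and a lower peak in ESC replicate 1 alone (3.44).

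All 8 let-7 processing genes, among them Dis3l2, Tut4, Tut7, Dicer1 and Drosha, had a start-site or gene-end peak in all 10 libraries. So did 52.9% of all genes at a start site and 49.9% at a gene end. The same held for 5 of 6 let-7 target genes, among them Hmga2 and Mycn, and Igf2bp1 lacked the peak in MEF replicate 2 only. All 12 NuRD genes and all 3 other NHL Trim genes (Trim2, Trim3 and Trim32) had it in every library. Of the other Sall genes, Sall2 had it in every library and Sall3 at its gene ends from DAY3 on and in no MEF library. None of these genes passed the trend test at an adjusted p of 0.05, and neither did any other of the 21063 genes tested (0%). The median trend score was 0.32 for the processing genes, 0.52 for the targets, 0.48 for NuRD and 0.36 for the NHL Trim genes, beside 0.28 for all genes.

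Of the 11 let-7 genes, 9 had no peak within 1 kb of their ends in any library. No share over other microRNA genes was computed, so this count has no background and is not a result about let-7 genes. Mirlet7i had one in all 10 libraries. Mirlet7g had none at MEF and DAY3, one in DAY6 replicate 2, and one in every library of DAY9 and ESC. The mature sequences of Mirlet7g and Mirlet7i, from the RefSeq table of the same build, are shown because a peak lay within 1 kb of these genes. Whether such a peak belongs to another gene was not tested. The seed (bases 2 to 8) is in capitals.
let-7g-5p, chr9:106178846-106178867: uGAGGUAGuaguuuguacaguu
let-7i-5p, chr10:122985698-122985719: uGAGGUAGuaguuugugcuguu
The table held 10 mature entries for these 11 genes, with 8 different sequences, and all share the seed GAGGUAG. In the stretch of 30 kb on either side, Mirlet7a-2 had 7 and 6 peaks at MEF, 1 in each DAY3 library, 0 in the 4 DAY6 and DAY9 libraries and 2 in each ESC library. Mirlet7g had 5 and 4 peaks at MEF and 10 and 8 at ESC. These were picked after their values were seen. MEF and ESC did not overlap at 5 of the 11 genes: ESC was lower at Mirlet7a-2 and at Mirlet7b and Mirlet7c-2, neighbours with equal counts (5 in each MEF and 3 in each ESC library), and higher at Mirlet7g and Mirlet7d (3 and 4 against 5 and 6). Of all protein-coding genes 36.9% were higher at ESC without overlap and 12.1% lower. Peaks there were not tested, since the trend was fitted to protein-coding genes.

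The genes whose covered base pairs within 30 kb followed each member most closely over the 10 libraries were found by Pearson r, as a description, since all points share the same libraries and list lengths. For Sall1 they were Calcr (r = 0.995), 1700019A02Rik (0.994) and Vmn2r84 (0.989). At 1700019A02Rik peaks covered at most 741 bp, where Sall1 reached 9756 bp in ESC replicate 2, so that r rests on few bases. Sall4 was followed by Tfap2c, a transcription factor of germ cells and trophoblast (0.979), Gm41607 (0.978) and D630039A03Rik (0.973). For Lin28a they were Gpr108 (0.984), Kctd3 (0.984) and Ccdc166 (0.973), for Lin28b Chl1 (0.99), Uhrf2 (0.988) and Chp2 (0.986), and for Trim71 Zdhhc5 (0.99), Plekha7 (0.99) and Gm2411 (0.988). None of the 5 was among the 3 nearest genes of another. Between the 5 themselves r ran from 0.521 for Lin28b with Sall4 to 0.906 for Sall1 with Trim71.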

How the data were processed

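ATAC-seq peak lists of 10 mouse libraries were used, 2 at each of 5 stages. Per the submitters' processing notes, Bowtie2 2.3.2, MACS2 2.1.1, deepTools 2.3.6 and the build mm10 were used, with no roles given; duplicate removal, transposase offset and filters are not given in the sources used here. The authors deposited 1 list per library, with a score, a fold enrichment (a linear ratio) and −log10 p- and q-values for each peak. The deposited score is 10 times the −log10 p-value rounded down, and no −log10 p-value was under 5, so weaker sites are unlisted and a missing peak is not a measured absence. Depth is not stated.

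Peaks were assigned to RefSeq genes (GRCm38.p6) in Python 3.11.15 with numpy 2.4.6, pandas 2.3.3 and scipy 1.17.1, and the code was tested on simulated data. Read heights recovered from the lists differed between the 2 libraries of DAY3 by 1.33 times and of DAY9 by 1.42 times counting noise (3.61 to 8.11 for the other stages), and each of these pairs was averaged as 1 sample. The labels do not say that replicates came from separate animals or cultures, so p-values measure the spread between these samples, which may be technical. The trend test used 5040 assignments and its smallest possible p is 0.000397.

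Regions named with coordinates are the start-site regions, up to 4 distal regions per gene with the highest fold in any library, and those with a peak in all 10 libraries. The genes, lists and rules were chosen with earlier results of these data known. Shorter lists, other windows, distances and overlaps, covered base pairs, separate libraries, a replicate block and leaving out each library were tried. Gene ends in place of start sites for every gene was added after seeing the data.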

Additional observations from a re-analysis of the deposited data

How the results depend on the processing

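Only covered base pairs and the 10 libraries as separate samples gave any gene an adjusted p under 0.05. In every other setting, and with any 1 library left out, no gene tested passed (0 up, 0 down). Staying above 0.05 there says nothing about the chosen genes, and only the sign of the score can be read. With 1 library left out, trend scores neither changed sign nor crossed the threshold in any of the 50 combinations. The same held in 41 of 45 combinations of gene and other setting. The other 4 passed an adjusted p of 0.05: Sall1 by covered base pairs (score 1, adjusted p = 0.0367, exact Jonckheere-Terpstra permutation test, 3.81% of all genes called), and with the 10 libraries as separate samples Sall1 (0.85, 0.0242), Sall4 (0.8, 0.0304) and Trim71 (0.825, 0.0317), where 7.63% were called. Equal-numbered libraries did not deviate together (correlations from -0.052 to 0.045), so the numbers do not pair them. With the replicate block the scores were 0.85 for Sall1 and Sall4 (adjusted p = 0.0619 for both, exact permutation test). They were 0.9 for Trim71, 0.7 for Lin28a and 0.4 for Lin28b. No call changed, but no gene tested passed with this block either. Gained distal regions fell from 20 to 12 in lists of equal length (15.8% of 76, against 7.97% of all regions), reached 40 when 1 library of a stage sufficed, and ranged from 20 to 30 with 1 library left out, 30 without either ESC library. Lost distal regions were 9 when 1 library sufficed and ranged from 2 to 7, with 4 without MEF replicate 1 and 7 without MEF replicate 2. Gained start sites ranged from 2 to 4 with 1 library left out, 4 without MEF replicate 1. The number of stages with a start-site peak moved in 14 of 30 combinations of gene and setting, for example to 4 for Lin28a within 2.5 kb, and to 0 for Lin28b and 1 for Trim71 among peaks above the pooled median score. The cause was not tested. The depth of each library is not stated, so a missing peak may lie under the caller's threshold.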
